A study of Mus musculus with 6 samples.

Results

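Olfactory receptor genes (symbols beginning with Olfr and a number) are described here as they appear in 6 lists of methylated DNA peaks from mouse hippocampus. A gene was taken in when a list annotated a peak to it in the promoter class, which these lists use for summits up to 2000 bp on either side of the annotated transcription start, or in the gene body class. The rule uses names and positions, not peak heights. It found 63 receptor genes among 7351 genes with a promoter or gene body peak, in 207 of 151910 rows of the lists. Of the 63 genes, 60 had a promoter peak and 4 a gene body peak (Olfr18, Olfr212, Olfr288 and Olfr631), with Olfr212 in both classes.

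The assay, MeDIP-seq (methylated DNA immunoprecipitation with sequencing), took sheared genomic DNA, captured it with an antibody against 5-methylcytosine and sequenced it, so that reads pile up where methylated CpG sites lie close together. The ethanol group held 3 male C57BL/6 pups given ethanol in 0.15 M NaCl at a dose of 2.5 g/kg, and the saline group held 3 male littermates given 0.15 M saline. Every pup received 2 subcutaneous injections on each of postnatal days 4 and 7, and hippocampal DNA was taken on postnatal day 21. Which pups shared a litter is not stated in the labels, so p-values measure the spread between these 6 animals. The DNA came from whole hippocampus, a mixture of cell types, and expression was not measured in these files, so the tissue label could not be set against marker genes. Each library held 403 to 707 peaks on the Y chromosome, which accords with the male label.

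Olfactory receptors are odorant-binding proteins with 7 transmembrane segments that couple to a G protein in sensory neurons of the nose, where each neuron expresses a single receptor allele. Their genes form the largest gene family of the mouse and lie in tandem clusters on most chromosomes. The coding sequence usually sits in a single exon, preceded by short noncoding exons a few kilobases upstream, and the promoters are poor in CpG. Class I receptors, the type related to those of fish, occupy a single cluster on mouse chromosome 7, and class II receptors make up the other clusters. Outside the nose most of these genes are silent, and CpG sites away from CpG islands are usually methylated in mammalian DNA.

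The DNA under the peaks differed between genes in where its CpG sites came from. The windows shown are 201 bp around the median summit of each gene's peaks, written 5′ to 3′ on the strand of the gene, with every CpG in capitals. They were read from the RefSeq copy of GRCm38.p6, the mm10 build the lists use. The first set lies in coding exons of receptors with a peak in all 6 libraries, and shows how many CpG sites a receptor's own coding sequence brings. Olfr281 lies at chr15:98456509-98456709 on the plus strand and holds 12 CpG sites, Olfr523 at chr7:140176563-140176763 on the plus strand with 6, Olfr550 at chr7:102579104-102579304 on the plus strand with 6, and Olfr156 at chr4:43821137-43821337 on the minus strand with 6.
Olfr281: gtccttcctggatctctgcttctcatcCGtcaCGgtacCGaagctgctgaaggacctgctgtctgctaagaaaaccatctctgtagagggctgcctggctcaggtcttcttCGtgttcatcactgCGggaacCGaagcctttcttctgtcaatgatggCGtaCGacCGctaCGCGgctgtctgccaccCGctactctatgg
Olfr523: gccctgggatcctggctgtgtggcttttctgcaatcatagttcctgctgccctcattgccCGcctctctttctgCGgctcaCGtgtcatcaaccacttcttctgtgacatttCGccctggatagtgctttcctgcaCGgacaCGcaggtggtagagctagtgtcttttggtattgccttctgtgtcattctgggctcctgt
Olfr550: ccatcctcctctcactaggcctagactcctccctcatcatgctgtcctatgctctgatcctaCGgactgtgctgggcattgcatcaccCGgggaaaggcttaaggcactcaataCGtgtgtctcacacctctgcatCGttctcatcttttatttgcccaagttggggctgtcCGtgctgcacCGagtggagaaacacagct
Olfr156: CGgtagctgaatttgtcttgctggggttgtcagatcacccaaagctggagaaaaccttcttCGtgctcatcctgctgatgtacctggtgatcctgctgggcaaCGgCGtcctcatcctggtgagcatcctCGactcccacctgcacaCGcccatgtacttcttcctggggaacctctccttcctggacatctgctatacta

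The second set lies outside coding sequence. Olfr1033, at chr2:86019042-86019242 on the plus strand, has its window at −1497 bp from the start, which is upstream, with 14 CpG sites and 87.1% of bases soft-masked, the mark the reference gives to repeats. Olfr325, at chr11:58582526-58582726 on the plus strand, lies 1790 bp downstream of the start and beyond the gene's end, in a run of short repeated words with 2 CpG sites and 83.1% soft-masked. Olfr503, at chr7:108542479-108542679 on the plus strand, lies at −1947 bp from its start, with 10 CpG sites and no soft-masked base, and is shown because its peak was found in every ethanol library and in no saline library.
Olfr1033: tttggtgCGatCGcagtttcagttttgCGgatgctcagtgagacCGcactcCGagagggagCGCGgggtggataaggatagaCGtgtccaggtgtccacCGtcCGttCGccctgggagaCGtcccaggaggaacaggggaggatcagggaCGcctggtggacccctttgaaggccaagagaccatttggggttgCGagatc
Olfr325: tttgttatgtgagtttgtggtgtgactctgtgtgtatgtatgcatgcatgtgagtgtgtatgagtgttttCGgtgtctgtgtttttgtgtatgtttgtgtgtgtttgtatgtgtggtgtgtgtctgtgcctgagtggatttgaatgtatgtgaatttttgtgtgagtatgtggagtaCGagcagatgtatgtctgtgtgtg
Olfr503: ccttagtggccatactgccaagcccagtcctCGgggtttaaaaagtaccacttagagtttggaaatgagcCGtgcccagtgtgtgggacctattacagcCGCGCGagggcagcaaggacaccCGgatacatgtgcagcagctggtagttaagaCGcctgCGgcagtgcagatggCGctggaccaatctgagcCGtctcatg

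Olfr1156, at chr2:87949647-87949847 on the minus strand, is shown for contrast. It had no promoter or gene body peak in any list, and was taken, among genes of chromosome 2 with a single coding exon, for a coding CpG density near the median of all receptor genes without such a peak. The central 201 bp of its coding sequence hold a single CpG.
Olfr1156: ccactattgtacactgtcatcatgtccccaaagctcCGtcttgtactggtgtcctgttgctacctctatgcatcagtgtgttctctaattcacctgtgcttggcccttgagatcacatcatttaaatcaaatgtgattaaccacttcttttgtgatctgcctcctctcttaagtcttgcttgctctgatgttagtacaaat

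Some receptor peaks recurred in every list, and more were seen in a few lists only. A peak was present in all 6 libraries at 15 genes, in 5 at 6 genes, in 4 at 5 genes, in 3 at 9 genes, in 2 at 12 genes and in 1 library at 16 genes. Of the 16 genes seen once, 14 came from ethanol libraries and 2 from saline libraries (Olfr521 and Olfr638). That is 22.2% and 3.17% of the receptor genes, where 17.2% and 5.09% of all 7351 genes with a promoter or gene body peak were seen in a single ethanol or a single saline library. Ethanol replicate 3 alone supplied 10 of them. Peaks at 20 genes were seen in ethanol libraries only, at 2 in saline libraries only and at 41 in both. Olfr194 and Olfr743 count as ethanol-only although saline libraries had peaks at the same place. Those saline summits lay past the 2000 bp limit and were classed as intergenic. Olfr743 is also among the 14 genes seen in a single ethanol library, while 5 libraries had a peak at its place. Ethanol-only genes were 31.7% of the receptor genes and 25% of all genes, and saline-only genes 3.17% and 5.9%, in lists that are longer for each ethanol library than for each saline library. The gene-by-library plot of fold enrichment (summit pileup over local background, as deposited) shows this order within each chromosome.

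**Figure D1:**
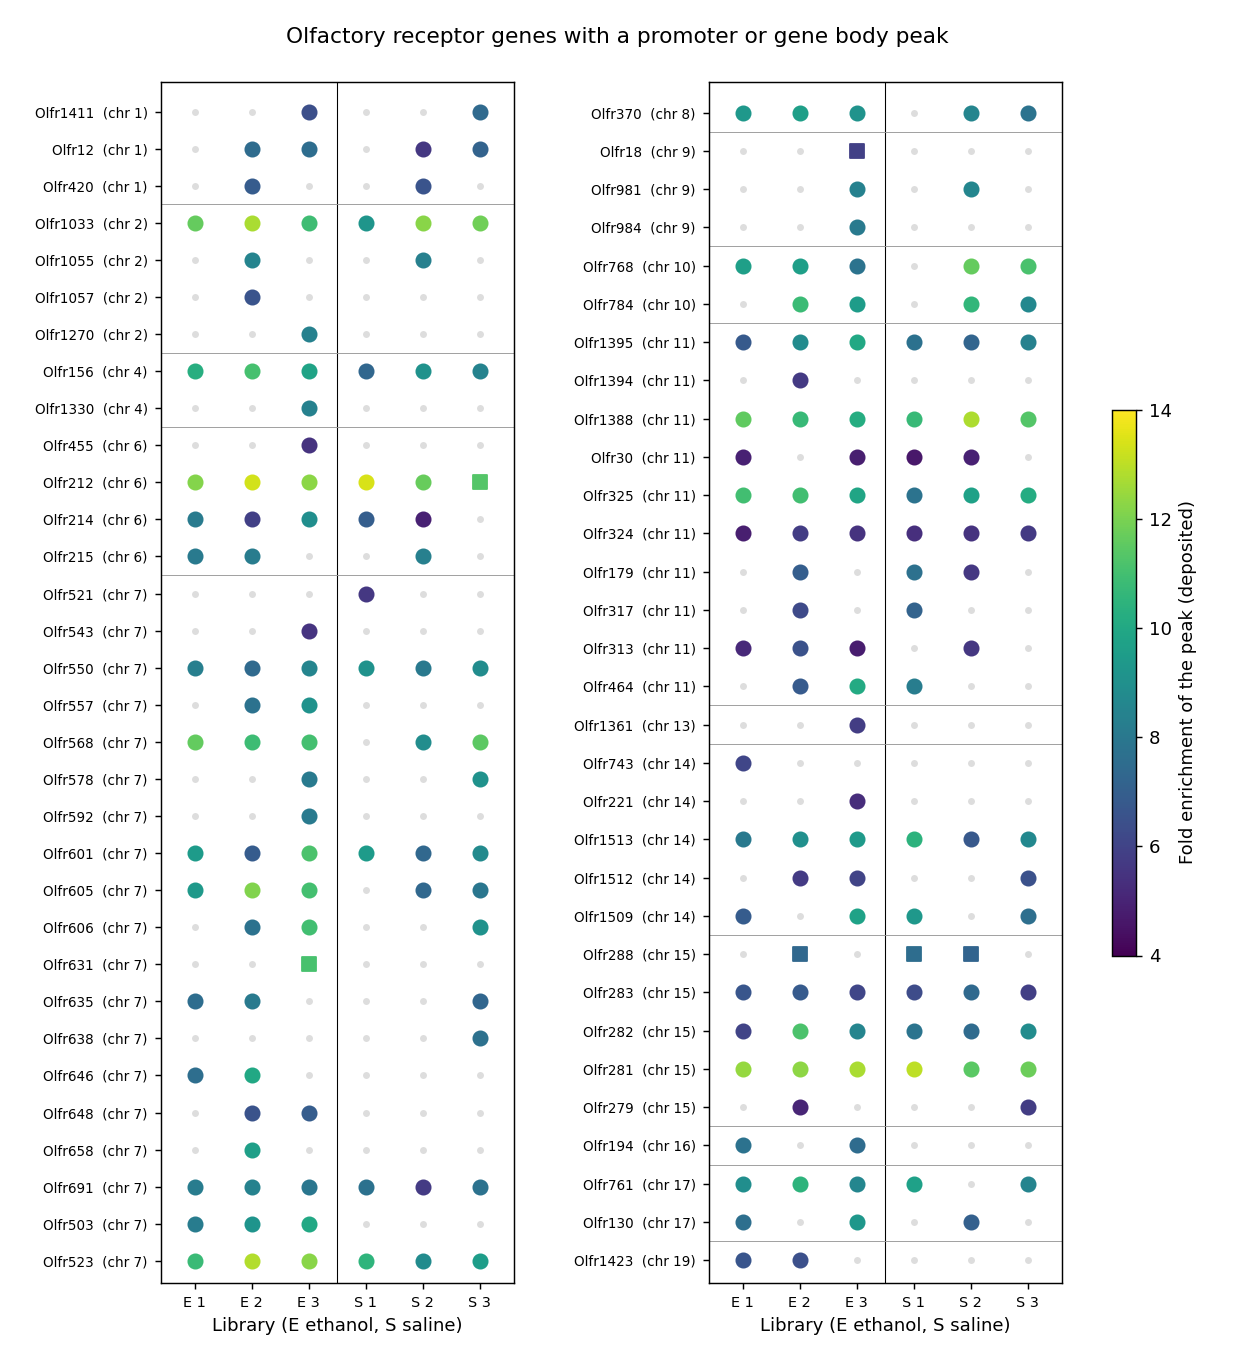
Fold enrichment of each receptor gene's promoter peak (circles) or gene body peak (squares) in the 3 ethanol and 3 saline libraries, genes ordered by chromosome and position; small grey dots mark no peak in these classes. Rows are filled across all 6 libraries at 15 genes, while ethanol replicate 3 holds 10 genes that no other library has.

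Among genes held by all libraries, Olfr281 on chromosome 15 (start 98456311, plus strand) had a summit pileup, the number of tags stacked at the highest base, of 139, 113 and 129 in the ethanol libraries and of 113, 134 and 100 in the saline libraries. Its fold enrichment was 12.4, 12.3 and 12.7 in the ethanol libraries and 12.99, 11.4 and 11.8 in the saline libraries. The groups overlapped in both measures. In its own list this peak never ranked below percentile 94.2 by −log10 q, the deposited measure of peak significance.

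Olfr1388 on chromosome 11 (start 49443852, plus strand) had the highest pileup among receptor peaks (in saline replicate 2), with 127, 163 and 167 in the ethanol libraries and 106, 171 and 131 in the saline libraries. Its summits, 1650 to 1727 bp downstream, were in an untranslated exon, and the bases under its peaks were all soft-masked at the median. Olfr1033 on chromosome 2 (start 86020639, plus strand) had a pileup of 101, 109 and 95 in the ethanol libraries and of 63, 98 and 79 in the saline libraries. For Olfr1033 the saline range reached from below every ethanol library into the ethanol range.

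Olfr212 on chromosome 6 (start 116506515, plus strand) had intronic summits at 1873 to 2047 bp, with a pileup of 52, 75 and 56 in the ethanol libraries and of 71, 56 and 44 in the saline libraries. That peak was in the promoter class in 5 libraries and in the gene body class in saline replicate 3, where its summit was 2047 bp away. Olfr325 on chromosome 11 had a pileup of 61, 61 and 53 in the ethanol libraries and of 41, 70 and 54 in the saline libraries. On chromosome 15, Olfr282 had 51, 106 and 83 in the ethanol libraries and 57, 60 and 68 in the saline libraries, and Olfr283 had 68, 66 and 62 in the ethanol libraries and 46, 71 and 58 in the saline libraries. None of these 4 genes separated the groups.

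The comparison of summit height between ethanol and saline asked whether regions with a peak in every library carried more or fewer tags after ethanol. A region is the union of peaks that share a base. None of the receptor regions did by the test used. Of 10276 regions held by all 6 libraries, 16 were receptor regions. These are the regions of the 15 genes with a peak in all 6 libraries and that of Olfr761. At Olfr761 the saline replicate 2 value came from a different, intergenic peak with its summit at −2139 bp. Limma on median-centred log2 pileup called 0 receptor regions in either direction at an adjusted p of 0.05. Over all 10276 regions 0% were called higher and 0% lower, so the receptors' count equals the background. At an unadjusted p under 0.05 there were 0 of the 16 receptor regions and 539 of all regions. The ethanol-over-saline difference was positive at 9 receptor regions and negative at 7, with a median of 0.02 on the log2 scale and a range of −0.30 to 0.41, beside a median of −0.00 over all regions.

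The 3 receptor regions with the lowest p were those of Olfr156, Olfr523 and Olfr550. Olfr156 on chromosome 4 (start 43821433, minus strand) had a pileup of 69, 62 and 67 in the ethanol libraries and of 29, 62 and 44 in the saline libraries. On the median-centred log2 scale its level was 5.93 in ethanol and 5.52 in saline, a difference of 0.41 ± 0.22 (SE; limma with Benjamini-Hochberg adjusted p = 0.902). Saline replicate 1 was the low library, and saline replicate 2 equalled ethanol replicate 2 in raw pileup.

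Olfr523 on chromosome 7 (start 140176103, plus strand) had 89, 87 and 71 in the ethanol libraries and 58, 60 and 57 in the saline libraries. These raw pileups did not overlap, but pileups are not scaled between lists, and after centring the difference was 0.28 ± 0.20 (SE; limma adjusted p = 0.926), with ethanol replicate 3 below saline replicate 1. Olfr550 on chromosome 7 (start 102578468, plus strand) had 37, 41 and 60 in the ethanol libraries and 46, 48 and 49 in the saline libraries, a difference of −0.30 ± 0.21 (SE; limma adjusted p = 0.926). On the centred scale ethanol replicate 3 was the highest library at Olfr550 and ethanol replicate 2 the lowest.

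The number of receptor genes with a promoter peak was 32, 42 and 45 in the ethanol libraries and 23, 30 and 29 in the saline libraries. Every ethanol library was above every saline library, with means of 39.7 ± 6.81 and 27.3 ± 3.79 (SD, n = 3 each), and a ratio of 1.45. An exact two-sided permutation test gave p = 0.1, the smallest that 3 against 3 allows, and an adjusted p of 0.3 (Benjamini-Hochberg, 9 measures). The lists themselves differ in length, at 23141, 34904 and 28386 peaks in the ethanol libraries and 18922, 22703 and 20776 in the saline libraries. When each list was trimmed to its 18922 most significant peaks, the counts were 24, 25 and 32 in the ethanol libraries and 23, 23 and 28 in the saline libraries. The groups then overlapped and the difference of the means was 2.33 genes (exact permutation p = 0.5).

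As a share of all promoter and gene body peaks, receptor peaks made up 0.498%, 0.450% and 0.616% in the ethanol libraries and 0.470%, 0.4998% and 0.525% in the saline libraries. The means were 0.522% ± 0.0852 and 0.498% ± 0.0276 (SD, n = 3 each; exact permutation p = 0.9, adjusted p = 1), so the share did not follow the count. The difference in share, 0.0234 percentage points, was −0.0238 without ethanol replicate 3, 0.0590 without ethanol replicate 2, 0.0368 without saline replicate 3 and 0.00919 without saline replicate 1. Peaks annotated to receptor genes in the intergenic class, which are not among the 63 genes' peaks, numbered 221, 311 and 285 in the ethanol libraries and 201, 210 and 198 in the saline libraries. As a share of each list they were 0.955%, 0.891% and 1.00% in the ethanol libraries and 1.06%, 0.925% and 0.953% in the saline libraries, which overlapped.

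**Figure D2:**
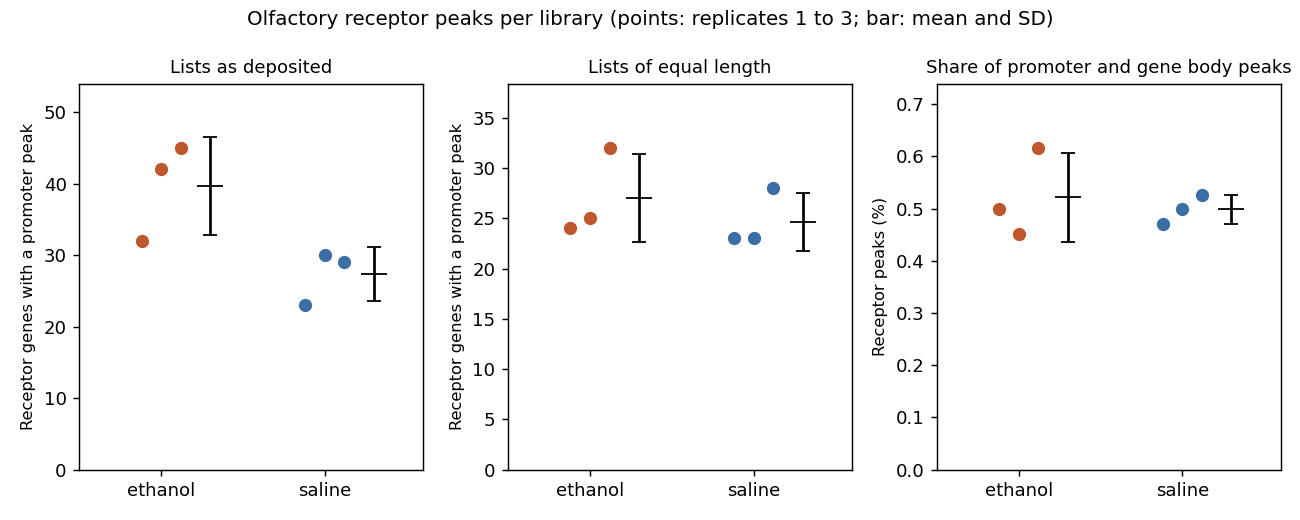
Receptor genes with a promoter peak in the lists as deposited (left) and in lists of equal length (middle), and receptor peaks as a percentage of all promoter and gene body peaks (right). Each point is a library, ethanol left of saline, and the bar gives the mean and SD of 3 libraries. Ethanol sits above saline on the left (32 to 45 against 23 to 30) and the groups overlap in the other panels.

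The number and covered length of receptor peaks separated the groups as the gene count did, and the other measures overlapped. Receptor peaks numbered 32, 43 and 47 in the ethanol libraries and 24, 31 and 30 in the saline libraries, and covered 25.8 ± 5.72 kb and 17.4 ± 2.16 kb (SD, n = 3 each; exact permutation p = 0.1, adjusted p = 0.3 for both measures), with differences of 2 peaks and 2.77 kb in lists of equal length. Receptor genes with a gene body peak numbered 0, 1 and 2 in the ethanol libraries and 1 in each saline library (exact permutation p = 1). Clusters of receptor genes holding a peak numbered 15, 17 and 21 in the ethanol libraries and 12, 15 and 13 in the saline libraries (exact permutation p = 0.2, adjusted p = 0.45), a difference of 4.33 that was 1.33 in lists of equal length and 2.67 without ethanol replicate 3. The median distance of summits from the start, without regard to side, was 645 ± 12.8 bp in ethanol and 617 ± 38.4 bp in saline (SD, n = 3 each; exact permutation p = 0.4), a difference of 28.2 bp that was 49.3 bp without saline replicate 1 and 11.8 bp without saline replicate 3. The median CpG density of receptor peaks was 2.70 ± 0.0335 per 100 bp in ethanol and 2.79 ± 0.108 per 100 bp in saline (SD, n = 3 each; exact permutation p = 0.3), and the sign of this difference turned in lists of equal length (0.147 per 100 bp). That difference was −0.0840 per 100 bp as deposited, −0.0392 without saline replicate 2 and −0.144 without saline replicate 3.

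A peak in 3 ethanol and 0 saline libraries was found at a single receptor gene, Olfr503, a class II receptor gene on chromosome 7. That is 1 of 60 receptor genes with a promoter peak, where 1.71% of all 1466 genes with a promoter peak had this pattern, and 1 of 63 receptor regions, where 1.28% of all 13695 promoter or gene body regions had it. The receptors' share was close to the background in both counts. No receptor gene or region had a peak in 3 saline and 0 ethanol libraries, where the background was 0.341% of genes and 0.131% of regions.

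The Olfr503 region spanned 108542376 to 108542958 on chromosome 7, where GENCODE places no gene, with summits at −1950, −1947 and −1858 bp in ethanol replicates 1 to 3. Its pileup was 26, 36 and 44 and its fold enrichment 8.17, 9.20 and 9.99 in the 3 ethanol libraries. By −log10 q (16.6, 23.9 and 30.0) it ranked between percentiles 24.5 and 71.7 of its lists. It was not in the saline lists, and an absent peak gives no level: how far the saline libraries stood below the calling threshold there is not known from these files. Olfr503 kept the pattern in lists of equal length. It also kept it without each of the 6 libraries in turn, but leaving out a library cannot break such a pattern, so this is no check. In lists of equal length the background was 0.578% of 9867 regions for the ethanol pattern and 0.669% for the saline pattern, so the excess of ethanol-specific regions as deposited was no longer there. With −log10 q of at least 15, regions of Olfr194, Olfr503 and Olfr605 showed the ethanol pattern, 3 of 50 receptor regions beside 1.49% of all regions. At Olfr194 and Olfr605 saline peaks were present but below that cutoff. Their −log10 q was 13.9 at Olfr194 in saline replicate 3, and 14.98 and 14.65 at Olfr605 in saline replicates 2 and 3. With promoter peaks limited to 1000 bp from the start no receptor showed the pattern, since the Olfr503 summit lies farther out.

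Most receptor summits lay downstream of the annotated start, inside the coding exon. Of 201 promoter peaks, 169 had their summit downstream of the annotated start and 32 upstream. Within 1000 bp downstream lay 144 peaks of 42 genes, and the summit of all 144 fell in a coding exon of the gene named. The annotated models are short, with a median of 963 bp from start to end and 53 of 63 under 1100 bp, so that this zone covers the coding sequence itself. Peaks in this zone had a median of 2.70 CpG per 100 bp and 4.89% soft-masked bases.

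The peaks outside the coding zone lay in other kinds of DNA. The 25 promoter peaks over 1000 bp downstream belonged to 7 genes (Olfr1055, Olfr1270, Olfr1388, Olfr212, Olfr325, Olfr743 and Olfr784), with no summit in a coding exon. They had a median of 3.62 CpG per 100 bp (range 0.833 to 5.17) and 79.6% soft-masked bases. The 32 upstream peaks belonged to 11 genes, again with no summit in a coding exon. They had a median of 3.34 CpG per 100 bp (range 0.603 to 6.27) and 61.7% soft-masked bases. Of these 32, 25 lay over 1000 bp upstream and 4 within 500 bp. Both sets thus held peaks rich and poor in CpG. By gene the median density ran from 0.603 per 100 bp at Olfr658 and 0.881 at Olfr325 to 5.75 at Olfr1033. Olfr325 had a median fold enrichment of 10.0 over all 6 libraries. Why peaks with few CpG sites were called was not tested. Over all 207 peaks, 147 summits lay in coding exons, 27 outside genes, 22 in introns and 11 in untranslated exons.

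**Figure D3:**
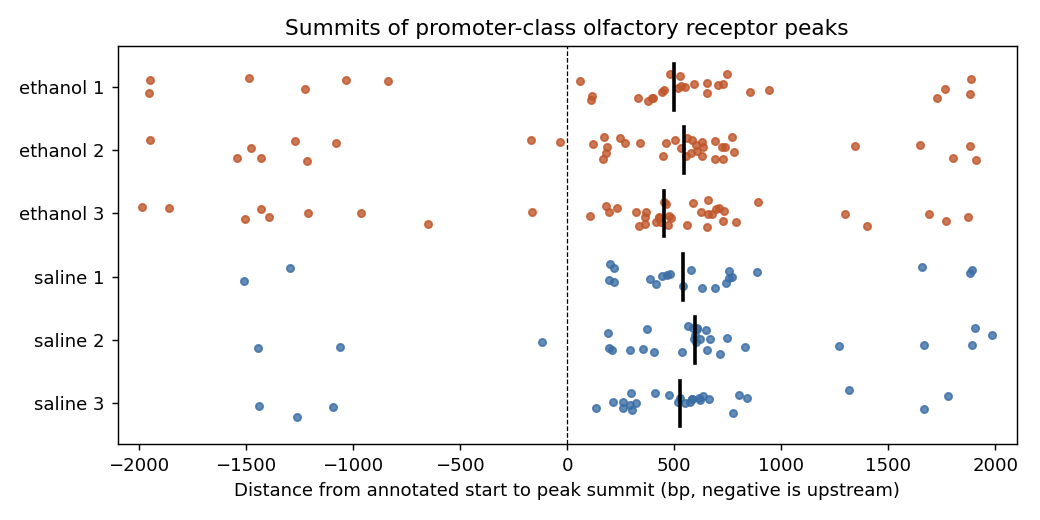
Distance from the annotated start to the summit of each promoter-class receptor peak, in bp, for the 3 ethanol libraries above the 3 saline libraries; negative values are upstream, and the black bar is the median of a library (454 to 544 bp in ethanol, 528 to 599 bp in saline). Points are densest in the first 1000 bp downstream in every library.

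GENCODE has further exons upstream of many of the short models whose starts the lists use. Measured from the 5′-most start of the same gene in GENCODE, the median promoter peak lay 3923 bp downstream, where the lists give 528 bp. By that start, 161 of the 201 promoter peaks lay over 2000 bp downstream and 40 within 2000 bp. The median summit of 48 of 60 genes lay over 2000 bp away from it. Measured from the nearest of all GENCODE starts of the same gene, all 201 promoter peaks lay within 2000 bp.

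The 2000 bp limit of the class decided membership at its edge. The receptor peaks just inside it were those of Olfr194 at −1986 bp in ethanol replicate 3 and at −1953 bp in ethanol replicate 1, Olfr1055 at 1986 bp in saline replicate 2 and Olfr503 at −1950 bp in ethanol replicate 1. Just outside it lay Olfr1286 at 2023 bp in ethanol replicate 2, Olfr194 at −2026 bp in saline replicate 3, Olfr212 at 2047 bp in saline replicate 3 and Olfr1055 at 2060 bp in ethanol replicate 1. The region of Olfr194 on chromosome 16 was promoter class in 2 ethanol libraries, and intergenic at −2070 bp in ethanol replicate 2 and at −2026 bp in saline replicate 3. At 4 genes (Olfr1055, Olfr194, Olfr743 and Olfr761) the region was held by more libraries than the gene's promoter class shows. At Olfr761 this was not the same peak relabelled. The promoter summits lay at −1294 to −1211 bp, and saline replicate 2 had only a peak with its summit at −2139 bp. Ethanol replicate 3 had a peak at −1211 bp and another at −2163 bp in this region.

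The summits of upstream peaks numbered 6, 9 and 9 in the ethanol libraries and 2, 3 and 3 in the saline libraries. The downstream share of promoter peaks was 81.3%, 78.6% and 80.0% in the ethanol libraries and 91.3%, 90.0% and 89.7% in the saline libraries, with no overlap between groups. For all other promoter peaks it was 65.3%, 62.6% and 65.7% in the ethanol libraries and 65.7%, 64.2% and 66.7% in the saline libraries, which overlapped. This split by treatment was looked at after the values were seen and was not tested. The ethanol lists were also the longer ones, and the part of list length in the split was not tested.

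Receptor peaks were set against all other promoter and gene body peaks within each library, by an exact two-sided sign-flip permutation test over 6 libraries whose smallest p is 0.03125. The libraries share the same genome, so this test covers the spread between libraries and not between genes. Receptor peaks were promoter class in 97.1% ± 1.58 of cases and other peaks in 10.8% ± 0.417 (SD, n = 6 libraries; higher in 6 of 6). In a model shorter than 2000 bp every summit inside the gene is promoter class by the limit. Among promoter peaks, 85.1% ± 5.77 of receptor summits and 65.0% ± 1.42 of other summits lay downstream of the start (SD, n = 6; higher in 6 of 6). Median soft-masked bases were 8.89% ± 0.670 in receptor peaks and 20.2% ± 2.105 in other peaks, lower in 6 of 6 libraries, and median fold enrichment was 8.12 ± 0.433 and 7.35 ± 0.195, higher in 6 of 6 (SD, n = 6 each). Each of these 4 differences had an exact permutation p of 0.03125 and 0.0547 after adjustment over 7 measures, which misses 0.05. For promoter class the short models and the limit fix the direction in advance, so its p carries no weight as a test. The part of model length in the downstream share was not tested. Receptor and other peaks were not matched for class. The part of class in the soft-masking and fold enrichment differences, and in the measures that follow, was not tested.

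CpG density and length differed less between receptor and other peaks. The median density was 2.75 ± 0.0848 CpG per 100 bp in receptor peaks and 2.79 ± 0.190 in other peaks (SD, n = 6 each; exact permutation p = 0.656). The median length was 565 ± 13.8 bp in receptor peaks and 559.5 ± 5.50 bp in other peaks (SD, n = 6 each; exact permutation p = 0.313). Peaks in regions held by all 6 libraries made up 48.3% ± 11.8 of receptor peaks and 41.6% ± 8.74 of other peaks (SD, n = 6; higher in 5 of 6; exact permutation p = 0.0625, adjusted p = 0.0875).

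Receptor genes with a peak were spread unevenly over the clusters. GENCODE places 1405 receptor genes and pseudogenes in 63 runs with no gap over 1 Mb, and 24 of these runs held a gene with a peak. Of 17 clusters with 20 or more annotated genes, 3 had none, namely those starting at 36285023 and 111230360 on chromosome 2, with 37 and 46 genes, and at 73350783 on chromosome 11, with 44 genes. The largest cluster, with 286 genes from 85330779 to 90403897 on chromosome 2, had 4 (Olfr1033, Olfr1055, Olfr1057 and Olfr1270), or 1.40%.

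**Figure D4:**
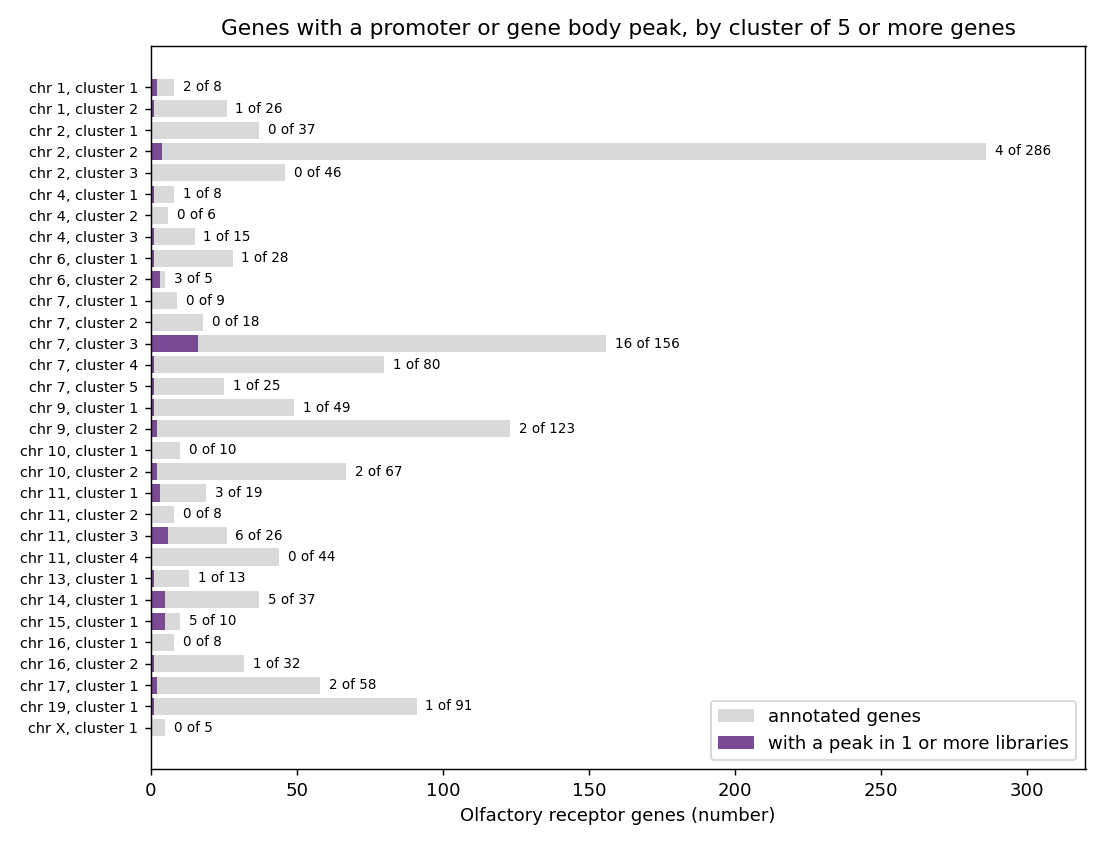
Number of annotated receptor genes in each cluster of 5 or more genes (grey bars) and of those with a promoter or gene body peak in 1 or more libraries (purple), clusters numbered by position along each chromosome. The class I cluster, numbered 3 on chromosome 7, has 16 of 156, and the chromosome 15 cluster 5 of 10.

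The class I cluster of chromosome 7 (102476579 to 105369355) had the most, with 16 of 156 genes or 10.3%. Its genes with a peak numbered 7, 11 and 12 in the ethanol libraries and 3, 5 and 9 in the saline libraries (10 ± 2.65 and 5.67 ± 3.06, SD, n = 3 each; exact permutation p = 0.2, adjusted p = 0.8 over 4 clusters). The highest saline library lay inside the ethanol range, and in lists of equal length the difference of the means was 2.33 genes. Olfr550, Olfr601 and Olfr691 had a peak in all 6 libraries, and Olfr568 and Olfr605 in 5, with saline replicate 1 the library without it for both genes. Olfr605 had a pileup of 30, 46 and 46 in the ethanol libraries and of 26 and 23 in saline replicates 2 and 3. Olfr601 had 37, 29 and 53 in the ethanol libraries and 32, 32 and 33 in the saline libraries, and Olfr691 had 35, 41 and 37 in the ethanol libraries and 29, 32 and 31 in the saline libraries. Raw pileups are not scaled between lists, and after centring the difference at Olfr691 was 0.08 ± 0.19 (SE; limma adjusted p = 0.969). The pileups of Olfr601, Olfr605 and Olfr691 are given outside the naming rule. Seen in ethanol libraries only were Olfr543, Olfr557, Olfr592, Olfr631, Olfr646, Olfr648 and Olfr658, none in more than 2 of them, while Olfr638 was seen in saline replicate 3 only.

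The chromosome 15 cluster (98186013 to 98502637) was the densest among those with at least 5 such genes, with 5 of 10 annotated genes or 50.0%. Olfr281, Olfr282 and Olfr283 had a peak in all 6 libraries, Olfr288 in 1 ethanol and 2 saline libraries and Olfr279 in 1 of each. Per library it held 3, 5 and 3 genes in ethanol and 4 in each saline library (3.67 ± 1.15 and 4 ± 0, SD, n = 3 each; exact permutation p = 1). Its coding genes had a median of 2.80 CpG per 100 bp, against 0.740 over all coding receptor genes. In the same cluster Olfr284, with 3.32 CpG per 100 bp, had no promoter or gene body peak, and was picked out after its values were seen.

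The chromosome 11 cluster from 58454105 to 59615060 had 6 of 26 genes, led by Olfr325 and Olfr324 in all 6 libraries, with 4, 5 and 4 genes in ethanol and 5, 5 and 2 in saline (4.33 ± 0.577 and 4 ± 1.73, SD, n = 3 each; exact permutation p = 1). A gene listed as Olfr179 in this cluster carries the symbol Olfr322 in the reference. The chromosome 14 cluster from 49894258 to 52495749 had 5 of 37 genes, with 3, 2 and 4 in ethanol and 2, 1 and 3 in saline (3 ± 1 and 2 ± 1, SD, n = 3 each; exact permutation p = 0.5). Olfr1513 was its only gene in all 6 libraries, with a pileup of 46, 39 and 36 in ethanol and of 58, 35 and 38 in saline. In this cluster too the libraries of the groups overlapped, and the difference of 1 gene was 0.5 without ethanol replicate 3 or saline replicate 2.

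In none of the other clusters did more than 4 genes have a peak. A short cluster on chromosome 6 (116489091 to 116584195) had peaks at 3 of its 5 genes, Olfr212 in all 6 libraries, Olfr214 in 3 ethanol and 2 saline libraries and Olfr215 in 2 ethanol libraries and 1 saline library. The chromosome 11 cluster from 48978889 to 49565859 had 3 of 19, with Olfr1388 and Olfr1395 in all 6 libraries and Olfr1394 in ethanol replicate 2. The chromosome 7 cluster that holds Olfr503 (106675005 to 108894420) had no other gene with a peak among its 80.

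Saline replicate 1, the shortest list, lacked a peak that each of the other 5 libraries had at 4 genes. Olfr370 is the only annotated receptor gene of its run on chromosome 8. It had a pileup of 45, 45 and 41 in the ethanol libraries and of 51 and 42 in saline replicates 2 and 3. Olfr768 on chromosome 10, with summits in an intron upstream of the listed start, had 34, 31 and 25 in the ethanol libraries and 47 and 39 in those saline libraries. Olfr568 had 39, 39 and 46 in the ethanol libraries and 36 and 43 in the same saline libraries. In raw pileup the saline libraries with a peak stood above the ethanol libraries at Olfr768, below them at Olfr605, the remaining gene of this kind, and overlapped them at Olfr370 and Olfr568. Olfr370, Olfr768 and Olfr568 were picked out after their values were seen.

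Receptor genes with a peak had more CpG sites in their coding sequence than those without. Of 1134 protein-coding receptor genes, the 1071 without a promoter or gene body peak had a median of 0.725 CpG per 100 bp, the 48 with a peak in 1 to 5 libraries 1.70, and the 15 with a peak in all 6 libraries 2.52. Of the 114 genes with the highest density, at 1.55 and above, 44 had a peak (38.6%), 11 of them in all 6 libraries. Of the other 1020 genes, 19 had one (1.86%), 4 of them in all 6 libraries. These are counts across genes of 1 genome, which are not independent replicates, and no test was run on them. MeDIP recovers fragments by the number of methylated cytosines they carry, so a methylated gene with few CpG sites can lie below the calling threshold, and absence of a peak is not absence of methylation.

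**Figure D5:**
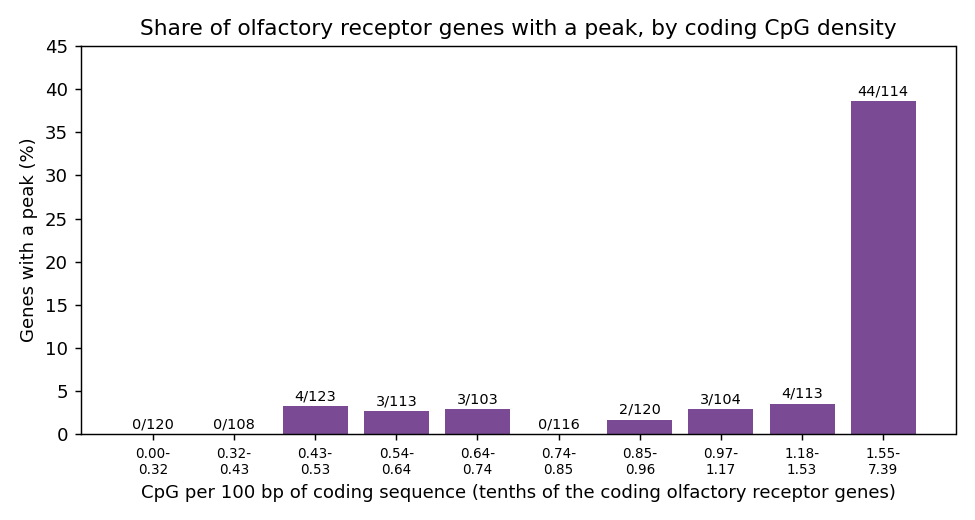
Share of protein-coding receptor genes with a promoter or gene body peak in 1 or more libraries, in percent, in 10 bins of about equal size by coding CpG density (CpG per 100 bp, range under each bar); the labels give genes with a peak over genes in the bin. The bin of highest density stands at 44 of 114, and the others hold 0 to 4 genes with a peak each.

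Some genes of high density had no peak. Olfr94 on chromosome 17 had 86 CpG sites in a coding sequence of 1164 bp, or 7.39 per 100 bp, and Olfr95 on the same chromosome 4.49, yet neither had a region over its coding sequence in any library. The same held for Olfr1344 (4.15) and Olfr1349 (4.10) on chromosome 7 and Olfr750 (3.32) on chromosome 14. These 5 genes were picked out after their values were seen. At the other end, Olfr325 and Olfr313 had 0.511 and 0.541 CpG per 100 bp of coding sequence and their summits lay outside it, beyond the end of Olfr325 and in an intron of Olfr313, whose region reached into the coding sequence.

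Among chemoreceptor families, a promoter peak in any library was found at 60 of 1108 olfactory receptor genes in RefSeq (5.42%), 0 of 230 Vmn1r and 3 of 123 Vmn2r vomeronasal receptor genes, 1 of 15 trace amine receptor genes (Taar) and 1 of 35 bitter taste receptor genes (Tas2r). Among the remaining coding genes 1389 of 19520 had one (7.12%). These counts describe the 6 lists pooled and were not tested.

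The genes through which the receptors signal were looked up beside them. Of 16 genes of olfactory transduction, 4 had a promoter peak and 8 a gene body peak in any library. Of coding genes outside the chemoreceptor families, 7.12% had a promoter peak. The share of all genes with a gene body peak was not taken, and gene length was not accounted for. These counts, and those for receptor choice below, were not tested and are not read as traits of the lists. Cnga4, a subunit of the cyclic nucleotide-gated channel that opens when odorants raise cAMP, had a promoter peak in all 6 libraries with a fold enrichment of 5.98 to 8.11. Omp, which encodes the olfactory marker protein of mature sensory neurons, likewise had 1 in all 6 at 5.92 to 8.20. Adcy3, the adenylyl cyclase of odorant signalling, and Ano2, a calcium-gated chloride channel, each had a promoter peak in a single ethanol library and in no saline library. With both classes counted, 17.2% of all 7351 genes with a peak were seen in a single ethanol library only. Ano2 is not such a gene, since it had gene body peaks in 3 ethanol and 3 saline libraries. The share for promoter peaks alone was not taken.

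Gene body peaks in all 6 libraries lay at Rtp1 (fold enrichment 7.94 to 11.2) and Rtp2 (9.504 to 13.4), which carry receptors to the cell surface, at Ano2 and at the channel gene Cnga3 (5.56 to 7.62). Gnal, the olfactory G protein, had a gene body peak in 3 ethanol libraries and 1 saline library. Cnga2, Cngb1, Gng13, Reep1, Slc24a4 and Stoml3 had no peak in either class. Of 12 genes that act in receptor choice, none had a promoter peak and 6 had a gene body peak, with Ebf1 and Ebf3, transcription factors whose family binds receptor promoters, in all 6 libraries. No gene of either list had a peak in 3 libraries of either group and 0 of the other.

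Receptor genes resemble each other in sequence, and the sources used here do not say how reads matching several places were handled, so a peak at a gene with a close copy may include reads of that copy. The read depth of the libraries is not known from these files. The lowest local background implied by pileup and fold enrichment was 2.16 to 2.34 tags in the ethanol lists and 1.85 to 2.65 tags in the saline lists. A control immunoprecipitation with nonspecific IgG, which the protocol mentions, was not analysed here.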

How the data were processed

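MeDIP-seq was run on 6 libraries, 3 ethanol and 3 saline, with 150 sequencing cycles, per the labels. Per the submitters' processing notes and the series' design text, reads were aligned to mm10 with Bowtie (Bowtie2 2.1.0 is named) and peaks were called with version 2 of the caller at a q threshold of 1e-4. Each library has its own deposited list. The deposited summit pileup is a coverage signal, not scaled to depth. The deposited fold enrichment is the authors' ratio of pileup to local background. The column headed q-value in the authors' files holds −log10 q, with a lowest value of 5.00 to 5.23. That is stricter than the stated threshold of 1e-4, and the reason is not known from these files. Distances to the start, lengths and coordinates are deposited in bp, with a first base of 1.

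Receptor peaks were taken by gene name and class, in Python 3.11.15 with pandas 2.3.3. Peaks sharing at least 1 bp were merged into regions over all 6 libraries. Measures per library were compared by exact permutation tests with Benjamini-Hochberg adjustment. Summit pileups of regions held by all 6 libraries were centred by their median and tested with limma 3.58.1 in R 4.3.3, checked first on simulated data. GRCm38.p6 from RefSeq supplied sequence, soft-masking and coding CpG, and GENCODE M21 supplied exons, starts and clusters; of the 63 genes, 62 were found by name and 1 through the RefSeq symbol of its transcript. The receptor genes named by rule are those held by 3 libraries of a group and 0 of the other, the 10 best ranked among those in all 6 libraries, the leading gene of each tested cluster, the 3 lowest limma p-values and the genes at the promoter limit. Further genes are named as members of a cluster, class or count. The members and lists were chosen with earlier results of these data known. No read depth was given, so no counting interval could be set.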

Additional observations from a re-analysis of the deposited data

How the results depend on the processing

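Over 23 results and 209 alternative values, 196 were counted as unchanged. For a test this means no opposite sign and the same side of the threshold, and for a count an equal or close value. The gene body gene difference was 0 as deposited and had no direction to keep. Of 179 tests under an alternative, 0 had an adjusted p of 0.05 or less, but most could not reach it. Exact permutation tests between the groups cannot go below 0.1, or 0.25 in 3 pairs. Sign-flip tests with a library left out went no lower than 0.0625. The difference in promoter gene counts (12.3 genes, ethanol minus saline) ranged from 9.67 to 16.2 with a library left out and was 2.33 with lists of equal length. The difference in share (0.0234 percentage points) was −0.0238 without ethanol replicate 3 and at most 0.0590 with a library left out. With lists of equal length the difference in median CpG density was 0.147 per 100 bp (−0.0840 as deposited), that in chromosome 11 cluster genes −1.33 (0.333 as deposited) and that in chromosome 14 cluster genes −0.333 (1 as deposited). The chromosome 11 difference was −0.667 without saline replicate 3 and at most 0.833 with a library left out. Receptor minus other CpG density (−0.0414 per 100 bp) was 0.000265 without saline replicate 1 and 0.00285 without saline replicate 3, with a lowest value of −0.0936. The cause of these changes was not tested. Ethanol-specific receptor regions numbered 3 of 50 at −log10 q of at least 15 (1.49% of all regions) and 0 with promoter peaks within 1000 bp. With a library left out they numbered 1 to 3. They were 3 of 62 without ethanol replicate 1 (Olfr503, Olfr557 and Olfr648) and 3 of 53 without ethanol replicate 3 (Olfr1423, Olfr503 and Olfr646). They were 2 of 63 without saline replicate 2 (Olfr313 and Olfr503) and 2 of 62 without saline replicate 3 (Olfr194 and Olfr503). The share of all regions with the pattern moved along: it was 1.28% with all libraries, 5.89% without ethanol replicate 1, 3.58% without ethanol replicate 3, 2.87% without saline replicate 2 and 2.44% without saline replicate 3. Scaling pileups by the background floor moved the median log2 difference of all regions to 0.13 and that of receptor regions to 0.15, with 0 receptor regions called.

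Which pups shared a litter is not stated, and replicate numbers were not treated as pairs. Same-numbered libraries had correlations of −0.172, −0.0295 and −0.0109 in their deviations from the group means. Differently numbered libraries had correlations of −0.1315 to 0.1428. These correlations cannot decide whether the numbers pair littermates. With the replicate block, promoter genes, peaks, covered length, CpG density and clusters had a permutation p of 0.25, the smallest 3 pairs allow, share and promoter class had 0.75, distance had 0.5 and gene body genes had 1. The block called 0 receptor regions in limma.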
